A study of Mus musculus with 2 samples.

Results

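The genes described here handle bile acids in the ileum, the last stretch of the small intestine. They were chosen by symbol, as Slc10a2, Fabp6, Slc51a, Slc51b and Fgf15, and all 5 were found among the 17134 genes of a count table from sorted intestinal tuft cells. Such cells are scarce sensors of luminal signals in the gut lining, here isolated from small intestine by flow cytometry on the epithelial protein EpCAM and the lectin Siglec-F. The Spib_KO library came from untreated mice with the genotype Spibfl/flVillin-cre, and the WT library from untreated mice with the genotype Spib+Villin-cre. Both groups therefore carried Villin-cre, which expresses Cre recombinase throughout the intestinal epithelium, so that a floxed gene is lost from every epithelial lineage and not from tuft cells alone. No source used here gives the ages, the number of mice behind a library, the deleted part of Spib or the stretch of small intestine. There was 1 library per genotype, so no difference below has a replicate check or a p-value, and all intervals cover counting error only.

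Bile acids are made in the liver from cholesterol, help to absorb fat in the upper intestine and are recovered in the ileum. The sodium-coupled transporter encoded by Slc10a2 takes them up from the lumen, the small cytosolic protein encoded by Fabp6 binds them, and a pair of subunits encoded by Slc51a and Slc51b exports them towards the blood. Inside the cell they activate the nuclear receptor FXR, encoded by Nr1h4, which is known to raise transcription of Fabp6, Slc51a, Slc51b and Fgf15. Fgf15 encodes a hormone that travels to the liver and lowers bile acid synthesis. These genes are known from ileal enterocytes rather than from tuft cells.

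Reads assigned to genes numbered 17228665 in Spib_KO and 17925421 in WT. Spib, the deleted gene, had 48 reads in Spib_KO and 6266 in WT, a log2 ratio of -6.95 (95% interval -7.40 to -6.55). The 14 listed tuft cell markers summed to 12518 TPM in Spib_KO and 12656 TPM in WT, none of them at 0. Enterocyte transcripts were also abundant. The 26 listed enterocyte markers summed to 51502 TPM in Spib_KO and 41798 TPM in WT, but without Fabp1, the gene with the highest TPM in both libraries, to 8571 TPM in Spib_KO and 11668 TPM in WT. In such bulk samples, fewer cells of a type and less RNA per cell cannot be told apart. Which cells the reads of the bile acid genes came from was not tested.

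The bile acid genes did not move together. Fabp6 and Fgf15 were higher in the Spib_KO library, the uptake gene Slc10a2 was low in both, and the exporter genes differed little. A gene was counted as measured if it had 30 reads or more and a normalised read count (CPM, reads scaled to a common library size) of 5 or more in at least 1 library, and was called higher or lower if the 95% interval of its log2 ratio lay beyond a 2-fold difference. Of the 5 genes 4 were measured, 2 were called higher and 0 lower. Over all 10707 measured genes 2.33% were called higher and 2.18% lower. The median log2 ratio of the 5 genes was 0.31 and that of all measured genes was 0.01. The former is the value of Slc51a alone, and its set includes Slc10a2, which was not measured. Fgf15 passed the filter only through the library in which it was high, so the count of called genes is given as a description.

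**Figure D1:**
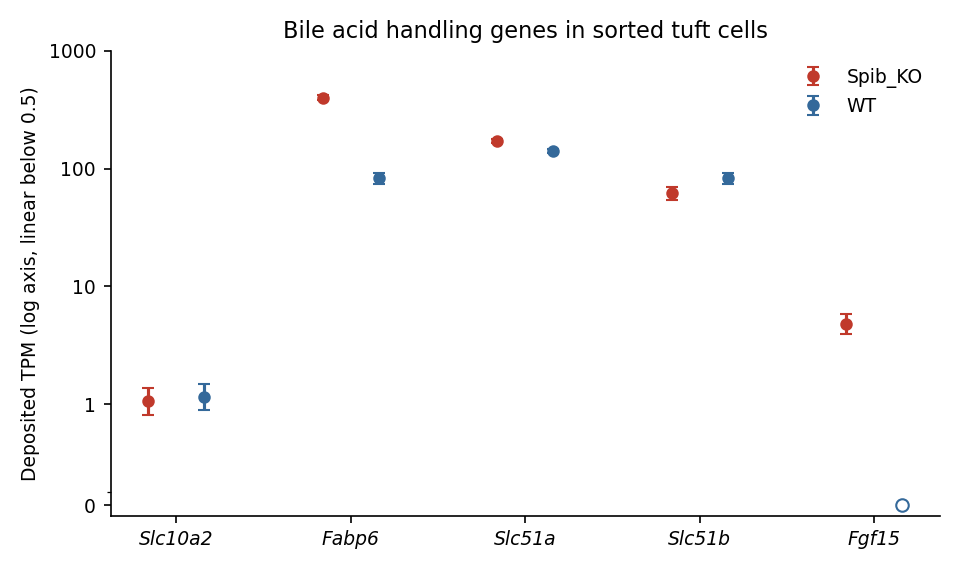
Deposited TPM of the 5 bile acid handling genes in the Spib_KO library (red, left of each pair) and the WT library (blue, right), on a log axis that is linear below 0.5, with 95% Poisson intervals of the reads behind each value. Fabp6 stands at 398 TPM in Spib_KO and 83.0 TPM in WT, and Fgf15 at 4.78 TPM in Spib_KO and 0 in WT (open circle). For each of the other 3 genes the 2 libraries lie closer together than for Fabp6.

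Uptake comes first in the pathway. Slc10a2 (gene 20494, chromosome 8, 5083219 to 5105287, GRCm38.p6) had 57 reads in Spib_KO and 64 in WT. This is 3.32 CPM in Spib_KO (95% Poisson interval 2.52 to 4.30) and 3.56 CPM in WT (2.74 to 4.54), under the minimum for a measured gene. The log2 ratio was -0.10 (-0.64 to 0.44). As a fold this interval runs from 0.642 to 1.36, which includes no difference. Per length, Slc10a2 stood at 1.07 TPM in Spib_KO and 1.16 TPM in WT, and ranked 11395th of 17134 genes in Spib_KO and 11264th in WT.

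Fabp6 (gene 16204, chromosome 11, 43596040 to 43601562), the intracellular bile acid-binding protein gene, had 1678 reads in Spib_KO and 343 in WT. It reached 97.8 CPM in Spib_KO (93.2 to 102.6) and 19.1 CPM in WT (17.1 to 21.2). The rise was 5.12-fold, a log2 ratio of 2.36 (2.19 to 2.53). Only 74 measured genes (0.691%), Fabp6 included, had a log2 ratio this high, and by the interval bound nearest 0 Fabp6 was the 56th of them all. On the TPM scale it moved up to rank 408 in Spib_KO, against rank 1679 in WT. With 398 TPM in Spib_KO it was the most abundant of the 5 genes there, whereas in WT its 83.0 TPM lay under Slc51a and level with Slc51b.

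Of 13 listed relatives of Fabp6 in the fatty acid-binding protein family, 10 were in the table and 3 were measured. Of these, 0 were called higher and 0 lower, against 2.33% higher and 2.18% lower over all measured genes. With 3 genes this count says little. Fabp1, the liver-type protein made by most enterocytes, had 10611 CPM in Spib_KO and 6968 CPM in WT, a log2 ratio of 0.61 (0.60 to 0.62). Fabp2, the intestinal type, had 11011 reads in Spib_KO and 16993 in WT, and its ratio lay on the other side of 0, at -0.56. Rbp2, which binds retinol in enterocytes, had a ratio of -0.34. The log2 ratio of Fabp6 exceeded that of Fabp1 by 1.75 (1.58 to 1.92) and that of Fabp2 by 2.92 (2.74 to 3.09).

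The exporter is made of 2 subunits that are needed together at the membrane. Slc51a (gene 106407, chromosome 16, 32475578 to 32487879), the larger subunit with several membrane spans, had 3131 reads in Spib_KO and 2646 in WT. These are 182 CPM in Spib_KO (176 to 189) and 147 CPM in WT (141 to 153), with a log2 ratio of 0.31 (0.24 to 0.39), which was not called. Slc51b (gene 330962, chromosome 9, 65412753 to 65422773), the small single-span subunit, had 242 reads in Spib_KO and 316 in WT. Its level was 14.1 CPM in Spib_KO (12.4 to 15.99) and 17.6 CPM in WT (15.7 to 19.6), a log2 ratio of -0.32 (-0.56 to -0.07). Intervals that miss 0 are common at this depth: 35.0% of measured genes had an interval wholly above 0 and 33.8% wholly below.

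The balance of the exporter subunits differed between the libraries by more than counting error. Per length, there were 2.76 Slc51a transcripts per Slc51b transcript in Spib_KO, from 171 and 61.8 TPM, and 1.70 in WT, from 140 and 82.7 TPM. The log2 ratio of Slc51a exceeded that of Slc51b by 0.63 (0.37 to 0.89), less than a 2-fold shift. Slc51b shares 3386 bases of its gene span with Rasl12, and reads of overlapping genes are not separated without strand. Rasl12 was listed with 5 reads in Spib_KO and 18 in WT, and how reads of the shared bases were assigned was not tested. Both exporter genes were far more abundant than the uptake gene: Slc51a had 159 times the TPM of Slc10a2 in Spib_KO and 121 times in WT.

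Fgf15 (gene 14170, chromosome 7, 144896532 to 144900953), the feedback hormone gene, was detected in the Spib_KO library alone. It had 105 reads in Spib_KO, or 6.12 CPM (5.004 to 7.41), and 0 reads in WT. For the count of 0 in WT a floor of 3 reads was used, or 0.167 CPM. The 95% Poisson interval of that count reaches 0.205 CPM. Fgf15 in Spib_KO stood at 36.7 times the floor. The 95% counting interval of the ratio, which also covers the error of the Spib_KO count, began at 29.3-fold. At 4.78 TPM it was not an abundant transcript, and 48.96% of genes stood at or below it in Spib_KO. It was 1 of 4 measured genes with no read in WT, while 18 measured genes had no read in Spib_KO. The long non-coding RNA gene Gm26793 overlaps 3157 bases of the Fgf15 span and is not in the count table. The libraries hold no strand information, and whether reads from Gm26793 were assigned to Fgf15 was not tested.

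**Figure D2:**
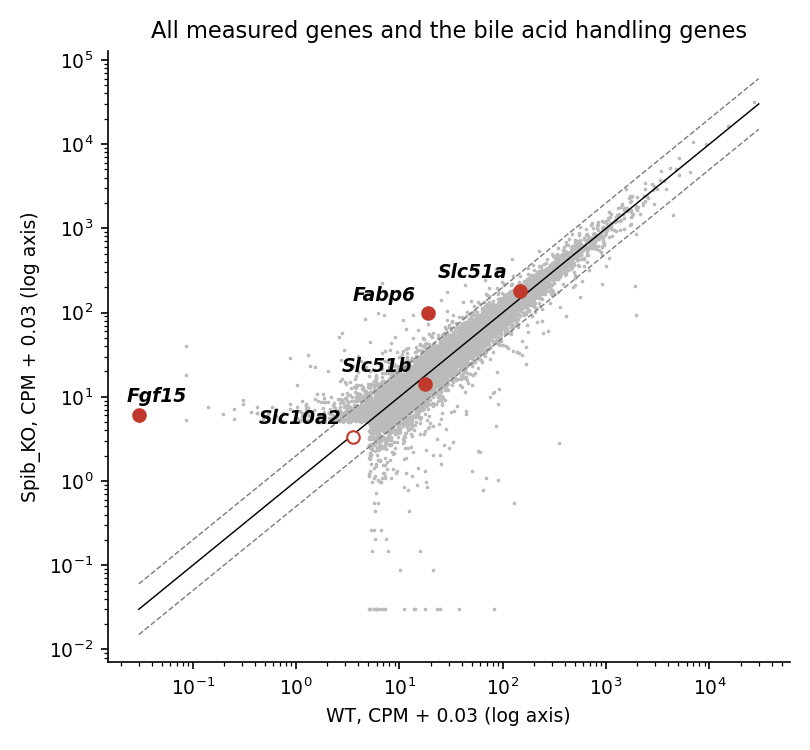
Each grey point is 1 of 10707 measured genes, with its CPM in WT on the x axis and in Spib_KO on the y axis, both with 0.03 added and on log axes. The solid line marks equal levels and the dashed lines a 2-fold difference, and the 5 bile acid handling genes are red, with an open circle for Slc10a2, which was not measured. Fabp6 and Fgf15 lie above the upper dashed line, and Slc51a, Slc51b and Slc10a2 lie between the lines.

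The order of the genes by TPM therefore differed between the libraries. In Spib_KO it ran Fabp6, Slc51a, Slc51b, Fgf15 and Slc10a2, at 398, 171, 61.8, 4.78 and 1.07 TPM, and the 95% counting intervals of neighbours did not overlap. In WT it ran Slc51a, Fabp6, Slc51b, Slc10a2 and Fgf15, at 140, 83.0, 82.7, 1.16 and 0 TPM. Fabp6 and Slc51b had overlapping intervals in WT, of 74.4 to 92.2 and 73.8 to 92.3 TPM. Fabp6 transcripts were 2.33 times as abundant as those of Slc51a in Spib_KO and 0.592 times as abundant in WT, and the log2 ratio of Fabp6 exceeded that of Slc51a by 2.05 (1.86 to 2.24).

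The promoter of Fabp6 is shown because it belongs to the called gene with reads in both libraries. Those of Slc51a and Slc51b are shown because these genes are also known FXR targets. Fgf15, the other called gene, has no window among those used here. Whether any site bears on the ratios was not tested. FXR with its partner RXR binds inverted repeats of the hexamer AGGTCA with 1 base between them, AGGTCA followed after that base by TGACCT. Each window runs 5′ to 3′ on the gene's strand, here the minus strand for all 3, from 250 bases before the RefSeq start to 50 bases from it on, in GRCm38.p6. The windows are chr11:43601513-43601812 for Fabp6, chr16:32487830-32488129 for Slc51a and chr9:65422724-65423023 for Slc51b. Capitals mark matches to the inverted repeat with up to 2 mismatches in its 12 fixed bases for Fabp6, and single exact AGGTCA or TGACCT hexamers for Slc51a and Slc51b.
Fabp6: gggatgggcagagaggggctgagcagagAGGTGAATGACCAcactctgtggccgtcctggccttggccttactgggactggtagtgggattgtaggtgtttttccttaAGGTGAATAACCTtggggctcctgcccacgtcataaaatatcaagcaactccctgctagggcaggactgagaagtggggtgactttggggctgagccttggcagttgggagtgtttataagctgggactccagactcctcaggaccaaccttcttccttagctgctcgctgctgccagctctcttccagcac
Slc51a: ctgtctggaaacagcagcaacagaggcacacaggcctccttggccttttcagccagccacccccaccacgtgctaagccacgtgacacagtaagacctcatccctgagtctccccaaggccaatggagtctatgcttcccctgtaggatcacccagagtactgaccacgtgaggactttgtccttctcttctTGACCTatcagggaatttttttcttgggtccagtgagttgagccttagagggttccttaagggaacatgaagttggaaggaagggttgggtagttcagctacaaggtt
Slc51b: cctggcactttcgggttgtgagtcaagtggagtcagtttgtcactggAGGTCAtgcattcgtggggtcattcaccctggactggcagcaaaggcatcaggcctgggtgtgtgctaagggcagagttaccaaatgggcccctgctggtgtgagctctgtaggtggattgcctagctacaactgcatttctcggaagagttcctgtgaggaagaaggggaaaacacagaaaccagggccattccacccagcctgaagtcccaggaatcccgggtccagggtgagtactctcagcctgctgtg

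The Fabp6 window held 2 matches to the inverted repeat, AGGTGAATGACCA starting 222 bases before the start and AGGTGAATAACCT starting 142 bases before it, each with 2 mismatches. Distances are from the RefSeq start, and an annotated GENCODE M21 transcript starts 22 bases after it for Fabp6, 64 bases before it for Slc10a2, 182 bases before it for Slc51b and at the same base for Slc51a. Windows with at least 1 such match made up 1.14% of 32851 RefSeq windows of the same length (374), and 4 windows (0.0122%) had 2 or more. The windows of Slc51a, Slc51b and Slc10a2 had none. In the Slc51b window the GENCODE start is base 69 of 300, so little sequence before that start was searched. Slc51a and Slc51b each held 1 exact hexamer, AGGTCA or its complement, as did 16.3% of all windows. The Slc10a2 window (chr8:5105238-5105537, minus strand) held ATTAATTATTAAC starting 224 bases before the start, within 1 mismatch of the HNF1 type site GTTAAT, any base, ATTAAC, which 0.207% of windows held. The purine-rich ETS type motif GAGGAAG, of the kind that Spi-B and PU.1 bind, was found only in the Slc51b window among the 4, where it starts 46 bases before the RefSeq start and after that GENCODE start, and in 13.6% of all windows. The GATA type motif AGATAA was in none of the 4 and in 11.2% of all windows. All motifs were searched on both strands, and such matches are descriptions of letters, not of binding.

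Sensors and nuclear factors of the pathway had ratios mostly below 0, with 1 call. Of 18 listed genes 16 were measured, 0 were called higher and 1 lower, and 13 had a log2 ratio below 0. Their median was -0.34, against 0.01 for all measured genes and -0.44 for the 26 listed enterocyte markers, of which 21 lay below 0. The lean below 0 was thus shared with enterocyte markers. Nr1h4, which encodes FXR, had 458 reads in Spib_KO and 814 in WT, or 26.7 CPM in Spib_KO and 45.2 CPM in WT, a log2 ratio of -0.76 (-0.93 to -0.59) that was not called. Nr0b2 encodes the repressor SHP, another textbook FXR target. It had 77 reads in Spib_KO and 84 in WT, a ratio of -0.06 (-0.52 to 0.41), and stayed under the CPM minimum in both. The log2 ratio of Fabp6 exceeded that of Nr0b2 by 2.42 (1.92 to 2.91). The bile acid receptor gene Gpbar1 had 16 reads in Spib_KO and 11 in WT.

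Malrd1, also called Diet1, was the called member of that list. It is known in mice to affect the amount of FGF15 that enterocytes produce. It had 989 reads in Spib_KO and 4423 in WT, or 57.6 CPM in Spib_KO and 246 CPM in WT, and fell 4.26-fold, a log2 ratio of -2.09 (-2.19 to -1.99). Fgf15 and Malrd1 thus lay on opposite sides in these libraries. The most abundant factors of the list were close: Hnf4g had 307 CPM in Spib_KO and 300.1 CPM in WT, and Hnf4a had 257 CPM in Spib_KO and 334 CPM in WT, a log2 ratio of -0.38. Gata4, which in mice holds down ileal genes in the upper intestine, had 39.2 CPM in Spib_KO and 35.0 CPM in WT, a ratio of 0.17 (0.01 to 0.33).

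**Figure D3:**
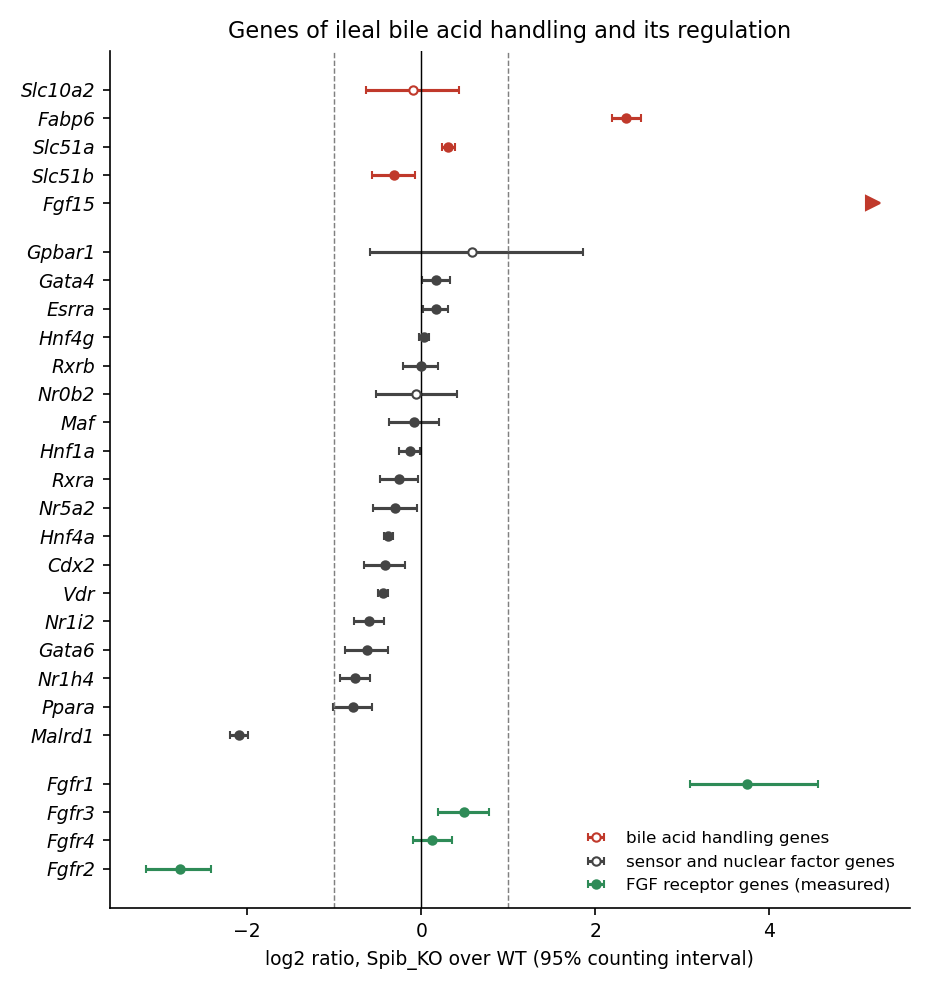
Log2 ratio of Spib_KO over WT with its 95% counting interval for the bile acid handling genes (red), the listed sensor and nuclear factor genes (black) and the measured FGF receptor genes (green). Open circles are genes that were not measured, dashed lines mark a 2-fold difference, and the arrowhead of Fgf15 stands at 36.7-fold, its level over the floor of 3 reads. Fabp6, Fgf15 and Fgfr1 lie above the upper line, and Malrd1 and Fgfr2 below the lower line.

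FGF15 acts on cells that carry the receptor FGFR4 with the co-receptor beta-Klotho, encoded by Klb. Fgfr4 had 19.6 CPM in Spib_KO and 17.9 CPM in WT, a log2 ratio of 0.12 (-0.10 to 0.35). Klb was low, with 12 reads in Spib_KO and 40 in WT. Of 8 listed genes for endocrine FGFs and FGF receptors 7 were in the table and 4 were measured, and 1 was called higher and 1 lower. Fgfr1 rose 13.4-fold, with 236 reads in Spib_KO and 18 in WT, a log2 ratio of 3.74 (3.09 to 4.56). Fgfr2 fell 6.84-fold, with 70 reads in Spib_KO and 505 in WT, a log2 ratio of -2.77 (-3.16 to -2.42).

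Other carriers that move bile acids and organic anions were also read. Of 21 listed, 19 were in the table and 13 were measured, with log2 ratios between -0.40 and 0.61 and a median of -0.05. Of the 13, 0 were called, against 2.33% called higher and 2.18% lower over all measured genes. Abcc3, an export pump of the basolateral side, had 263 CPM in Spib_KO and 271 CPM in WT. Slco4a1, an organic anion transporter gene, had 460 CPM in Spib_KO and 522 CPM in WT. Abcc2, an apical export pump gene, had 32.8 CPM in Spib_KO and 31.0 CPM in WT. The liver's own uptake and export genes, Slc10a1 and Abcb11, did not exceed 1.11 CPM in either library.

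Genes for bile acid synthesis and conjugation had 1 of 12 measured members called higher and 0 called lower, with a median of -0.02. Of the 22 listed genes, 7 were not in the table. The called gene was Acox2, a peroxisomal oxidase that shortens the bile acid side chain, with 91 reads in Spib_KO and 23 in WT, a log2 ratio of 2.03 (1.38 to 2.78). Cyp7a1, the first and rate-limiting enzyme of the classical pathway in liver, had 5 reads in Spib_KO and 0 in WT, and no fold is given. Cyp27a1, a sterol hydroxylase gene of the alternative pathway, had 34.7 CPM in Spib_KO and 22.6 CPM in WT, a ratio of 0.62. The most abundant members, Acot8 and Scp2, had ratios of 0.19 and 0.01.

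Because bile acid recovery belongs to the distal intestine, genes of distal and proximal position were read beside it. Cubn and Amn encode the ileal receptor for the vitamin B12 carrier. Cubn had 11.4 CPM in Spib_KO and 8.50 CPM in WT, a log2 ratio of 0.42 (0.11 to 0.74), and Amn had 35.4 CPM in Spib_KO and 42.3 CPM in WT, a ratio of -0.26 (-0.41 to -0.10). Of 8 measured genes in the distal list 1 was called higher and 1 lower. The gasdermin gene Gsdmc4 was higher, with a ratio of 2.31. The hormone gene Gcg was lower, with 0 reads in Spib_KO and 316 in WT. Its WT level was 100.4 times the Spib_KO floor of 3 reads, and the 95% interval of the ratio began at 81.2-fold lower. Of 16 measured genes in the proximal list 1 was called higher, the hormone gene Gip with a ratio of 1.87, and 2 lower. The 2 were the hormone gene Cck, with 1 read in Spib_KO and 379 in WT, and the alcohol dehydrogenase gene Adh1, with 1458 CPM in Spib_KO and 4429 CPM in WT and a ratio of -1.60. The list medians were -0.16 for distal and -0.17 for proximal genes. Whether the stretch of intestine sampled differed between the libraries was not tested.

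Enterocyte markers were read as a group beside the bile acid genes. They had 0 calls, against 2.33% called higher and 2.18% lower over all measured genes. Of the 26, all measured, 21 had a log2 ratio below 0, with a range of -0.89 to 0.61 and a median of -0.44. When that median was set to no difference, the log2 ratio became 2.80 for Fabp6 and 0.75 for Slc51a, while those of Slc51b and Slc10a2 changed sign, to 0.12 and 0.34. This scaling moved the median of all measured genes to 0.45 and the called genes to 647 higher and 136 lower, so that 82.6% of called genes were higher, against 51.8% with the main scaling. The part of enterocyte RNA in the ratios of the bile acid genes was not tested.

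Markers of other cell types also moved between the libraries. Goblet cell markers had 3 of 7 called lower and summed to 2427 TPM in Spib_KO and 4564 TPM in WT. Paneth cell markers had 5 of 6 called lower and summed to 3222 TPM in Spib_KO and 8350 TPM in WT. Enteroendocrine markers had 5 of 7 measured called lower and summed to 2157 TPM in Spib_KO and 1910 TPM in WT. Most of that is the secretin gene Sct, at 2133 TPM in Spib_KO and 1729 TPM in WT, and without it the sums were 23.6 TPM in Spib_KO and 180.35 TPM in WT. Gcg, Tph1 and Pyy were at 0 reads in Spib_KO and had 316, 123 and 1 in WT. T cell markers summed to 6.83 TPM in Spib_KO and 90.7 TPM in WT, with Cd3d at 0 in Spib_KO, and macrophage markers to 0.93 TPM in Spib_KO and 12.1 TPM in WT, with C1qa and Csf1r at 0 in Spib_KO. Stem and progenitor markers had 0 of 5 called, summing to 451 TPM in Spib_KO and 572 TPM in WT. Of 5 hepatocyte markers 3 were in the table, and these summed to 10.8 TPM in Spib_KO and 10.4 TPM in WT. Their part in the results was not tested.

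**Figure D4:**
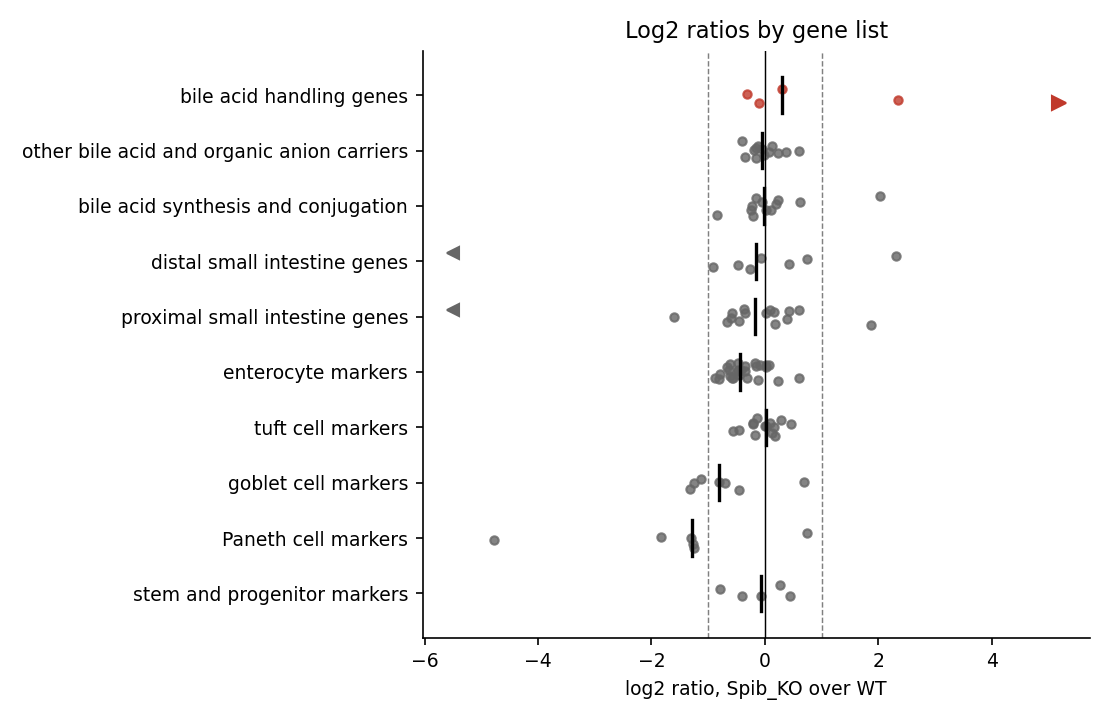
Log2 ratio of Spib_KO over WT for the bile acid handling genes (red) and the measured genes of 9 lists (grey), 1 point per gene, with a black bar at each list median and dashed lines at a 2-fold difference. The right arrowhead is Fgf15 over the floor of 3 reads, and left arrowheads are genes below the axis range. Fabp6 and Fgf15 lie beyond every point of the carrier, synthesis and enterocyte lists.

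By the pair of CPM values on the log2 scale, Slc51a and Slc51b sat in crowded company and Fabp6 and Fgf15 did not. Within a distance of 0.25 there were 126 other measured genes for Slc51a, 222 for Slc51b, 1 for Fgf15 and 0 for Fabp6. The genes nearest to Fabp6 were Ptprd, Slc1a4 and Lpin1, at distances of 0.43, 0.50 and 0.60. Those nearest to Fgf15 were Gm14296, Col6a6 and Gm45988, at 0.08, 0.27 and 0.76, all with 0 reads in WT. With Fgf15 they make up the 4 measured genes at 0 in WT, whose WT position is set by the prior count alone. The nearest to Slc51b were Pomk, Zfp868 and Galnt11, all within 0.03. With 2 libraries this likeness holds only a level and a ratio, so the sparse surroundings of Fabp6 and Fgf15 restate their levels and ratios.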

How the data were processed

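Sorted tuft cells gave 1 Spib_KO and 1 WT library. TRIzol RNA was turned into Smart-seq2 type cDNA and transposase libraries, per the labels' protocols, with no strand information. HISAT and Bowtie2 2.2.3 were run on mm10, per the submitters' processing notes. No source used here names the counting program or its annotation. Each gene has a count, a TPM and an FPKM in both libraries, as the authors deposited them. The deposited values are expected counts (18.6% of genes in Spib_KO and 19.0% in WT are not whole) and were rounded; those of the 5 genes are whole. The deposited TPM served for levels between genes, and TPM and FPKM as alternatives.

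Totals were scaled with TMM factors (edgeR 4.0.16, R 4.3.3) to 17161039 for Spib_KO and 17996059 for WT. The log2 ratio used a prior count of 0.5 per library, its interval was the 95% Clopper-Pearson interval of the 2 counts, and intervals of levels were exact Poisson intervals. Differences between ratios of 2 genes have exact conditional odds ratio intervals. Amplified reads are not independent molecules. The floor for a count of 0 was 3 reads per library. Software was pandas 2.3.3, scipy 1.17.1, numpy 2.4.6 and matplotlib 3.10.9 under Python 3.11.15. The procedure was tested on simulated Poisson counts, which hold neither amplification nor spread between animals. Alternatives were other scalings (DESeq2 1.42.0 size factors, totals, upper quartile, enterocyte or tuft cell markers), filters, bounds and prior counts, unrounded counts, thinning, and TPM or FPKM.

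The bile acid genes, the lists and the rules were chosen with earlier results of these data known. Named list members are those called (up to 4) and the 2 most abundant, by TPM, of each list, the 3 genes nearest each measured bile acid gene (those of Slc51a are not reported here), and genes next to or overlapping one. Nr1h4, Nr0b2, Gpbar1, Gata4, Fgfr4, Klb, Fabp2, Abcc2, Slc10a1, Abcb11, Cyp7a1, Cyp27a1, Cubn and Amn were added for their role, and Pyy, Cd3d, C1qa and Csf1r for their 0 reads, after values were seen. Motifs were likewise chosen late. Coordinates and promoter windows are RefSeq's for GRCm38.p6, the assembly behind mm10, and 4 of the 5 genes have a window.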

Additional observations from a re-analysis of the deposited data

How the results depend on the processing

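The 16 alternatives kept the log2 ratio of Fabp6 between 2.24 and 2.80 and its call, and kept that of Slc51a between 0.28 and 0.75 with no call. Other filters or bounds, the point estimate and unrounded counts could not change the ratios of the 5 genes. Slc51b ranged from -0.42 to 0.12 and Slc10a2 from -0.13 to 0.34, neither called, and each changed sign under 1 alternative, scaling on enterocyte markers. Fgf15 was called under 12. With a CPM minimum of 20, with TPM plus 1, with TPM plus 0.1 and with FPKM plus 1 it fell under the expression filter, so that 1 of the 5 genes was called higher; its log2 difference, which depends on the count or value added, was 2.26 to 7.997. None of the 5 was called lower under any alternative.

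Over all genes, 250 were called higher and 233 lower. Without the filter 595 were higher and 716 lower, with a CPM of 20 or more 101 and 106, by the point estimate 425 and 419, at a 1.5-fold bound 598 and 591, and at a 4-fold bound 65 and 88, which follows from how many genes each rule admits. Scaling on enterocyte markers gave 647 higher and 136 lower, and FPKM plus 1 gave 165 higher; the cause of the latter was not tested. Every other count was within 1.5 times. The 0 WT reads of Fgf15 and the low counts of Slc10a2 limit what depth can show. No paired analysis was possible because there was 1 library per genotype.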

Other observations

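Beside Fabp6 on chromosome 11, at a gap of 9040 bases, lies Ccnjl (43528749 to 43586999), which encodes a cyclin J-like protein. It had 88 reads in Spib_KO and 21 in WT, a log2 ratio of 2.11 (1.44 to 2.90), and was called higher. The next gene of the table on the other side, Pwwp2a, at a gap of 79562 bases, had 70.3 CPM in Spib_KO and 49.96 CPM in WT, a ratio of 0.49 (0.37 to 0.62). The log2 ratio of Fabp6 exceeded that of Ccnjl by 0.22 (-0.56 to 0.95), so that these counts do not separate the pair. Of the next genes around Fgf15 none was called. LTO1, at a gap of 14146 bases, had 43.4 CPM in Spib_KO and 31.5 CPM in WT, a ratio of 0.46 (0.30 to 0.62). Fgf4, with 4 reads in Spib_KO and 5 in WT, was not measured. Beside Slc51a, at a gap of 512 bases, Pcyt1a had a ratio of -0.06 (-0.17 to 0.06), and Zdhhc19, on its other side, had 5 reads in Spib_KO and 0 in WT. Beside Slc51b, Mtfmt had a ratio of 0.51, and Kbtbd13, with 6 reads in Spib_KO and 73 in WT, was not measured. The next genes of the table around Slc10a2 lay far off. Efnb2, at a gap of 3511947 bases, was called higher, with a ratio of 1.16 (1.01 to 1.32). Shcbp1, at a gap of 303651 bases, had a ratio of -0.57. Over all measured genes 2.33% were called higher, and whether neighbours differed together was not tested.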
